A study of Homo sapiens with 6 samples.

Results

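ATF4, the transcription factor at the centre of the integrated stress response, and 9 genes of its response (ATF3, DDIT3, TRIB3, CHAC1, ASNS, SESN2, PPP1R15A, CEBPB and CEBPG) were examined in colorectal cancer cells depleted of ZEB1. A gene was taken when its name in the count tables equalled a listed name, and all 10 were found among the 32029 genes listed and among the 14996 genes with enough reads to be tested. RNA was sequenced from SW480, an established human colorectal adenocarcinoma line labelled wild type, 48 h after transfection with a control siRNA (siControl, siNC in the sample records; 3 cultures) or with siRNA against the repressor ZEB1 (siZEB1; 3 cultures). Both groups share the cell line, the transfection and the time, and each culture is described as a biological replicate. The work rests on 1 cell line, and whether siZEB1 was a single siRNA or a pool is not given in the sources used here.

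The integrated stress response begins when a kinase phosphorylates the initiation factor eIF2, which lowers general protein synthesis while the ATF4 message, held back by upstream open reading frames in ordinary conditions, is translated more. ATF4 pairs with C/EBP family proteins at composite C/EBP-ATF elements and switches on genes for amino acid supply, redox balance and further transcription factors. PPP1R15A closes the loop by directing a phosphatase back to eIF2, and DDIT3 and TRIB3 carry the late, death-related phase. A count of RNA reads does not measure ATF4 protein or eIF2 phosphorylation.

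The composite element was searched as TGATGNAA on both strands (reverse complement TTNCATCA) in the RefSeq promoter windows of GRCh38.p14, which run from 250 bases before to 50 bases after a gene's start. All 10 genes had a window, 18 windows in all, and 4 genes (ATF3, ASNS, CHAC1 and CEBPG) held a match, against 4.46% of the 27305 genes in the table and 3.62% of its 35116 windows. The matches are shown because they differ by gene in the variable base and in orientation. Each is printed 5′ to 3′ on the gene's strand, with the matched letters in capitals. Positions count from the RefSeq start of that window, which can differ from the gene span given further below. The matches of ASNS, CHAC1 and CEBPG lie inside that span, and the match of ATF3 lies before it.
ATF3, chr1:212565205-212565234, plus strand, motif from position -191: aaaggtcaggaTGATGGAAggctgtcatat
ASNS, chr7:97872458-97872487, minus strand, motif from position -68: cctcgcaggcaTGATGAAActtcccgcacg
CHAC1, chr15:40953251-40953280, plus strand, reverse complement, motif from position -209: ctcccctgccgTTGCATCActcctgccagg
CEBPG, chr19:33374060-33374089, plus strand, motif from position -42: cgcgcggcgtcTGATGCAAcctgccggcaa

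CACCTG, the E-box that ZEB1 is known to bind, was searched in the same way (reverse complement CAGGTG). A match was found for 3 of the 10 genes (TRIB3, ASNS and CHAC1), against 24.1% of all genes and 20.6% of all windows. The match of CHAC1 lay after the start, so 2 genes held one in the 250 bases before it, against 20.6% of genes. The 2 matches before the RefSeq start are shown for comparison with the responses of TRIB3 and ASNS, although both lie inside the gene span given further below. These letters are a description of the windows and not evidence of binding.
TRIB3, chr20:381091-381118, plus strand, motif from position -193: gcgggccggccCACCTGctggtgccctg
ASNS, chr7:97872337-97872364, minus strand, reverse complement, motif from position -188: ctgcttacgccCAGGTGagccgggtcct

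Between 19040636 and 22357633 reads were counted on genes in a culture, and the biological coefficient of variation was 6.58%. ZEB1 fell in the siZEB1 cultures, from 54.2 ± 6.24 to 7.51 ± 0.843 CPM (SD, n = 3). All 7 epithelial markers examined were listed, with a summed level of 4814 to 5437 CPM with siControl and 5329 to 6002 CPM with siZEB1, although KRT20 stayed under 1 CPM in every culture. KRT8 and KRT18, which made up most of this sum, did not pass the test, but other epithelial markers moved with the group. The mean of EPCAM, an epithelial adhesion protein, rose from 54.7 to 454 CPM, KRT19 from 72.3 to 223 CPM and VIL1 from 4.08 to 20.7 CPM, whereas that of CDX2, the intestinal transcription factor, fell from 103 to 41.8 CPM, with no overlap between groups for any of them. The part of this shift in the results on the 10 genes was not tested. The summed levels of leukocyte and endothelial markers were at most 1.17 and 1.56 CPM in any culture (PTPRC and CDH5 had no row), and those of fibroblast markers were 13.3 to 14.8 CPM with siControl and 13.3 to 15.0 CPM with siZEB1. Levels are in CPM, reads of a gene scaled to a common library size with TMM factors, and changes are log2 ratios of the siZEB1 to the siControl level, each with its standard error (SE), from edgeR's quasi-likelihood test, two-sided, called at a Benjamini-Hochberg adjusted p under 0.05 over all genes tested.

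Of the 10 genes, 8 rose in the siZEB1 cultures, none fell, and ASNS and CEBPB did not pass the test. Among all genes tested 19.0% rose and 21.2% fell, so that calls in either direction were common in this comparison. The median log2 fold change of the 10 genes was 0.46, beside -0.0055 over all genes tested. All 3 siZEB1 cultures lay above all 3 siControl cultures for 7 of the 10 genes and below them for none, whereas 24.3% of all genes tested were separated upwards in this way and 25.3% downwards. TRIB3, SESN2, DDIT3 and PPP1R15A rose by more than 1.5-fold at an unadjusted p under 0.05, a rule that 7.21% of all genes met in the upward direction. The 10 genes were chosen with earlier results of these data known. The values over all genes are therefore given for scale, and the set was not tested against them.

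**Figure D1:**
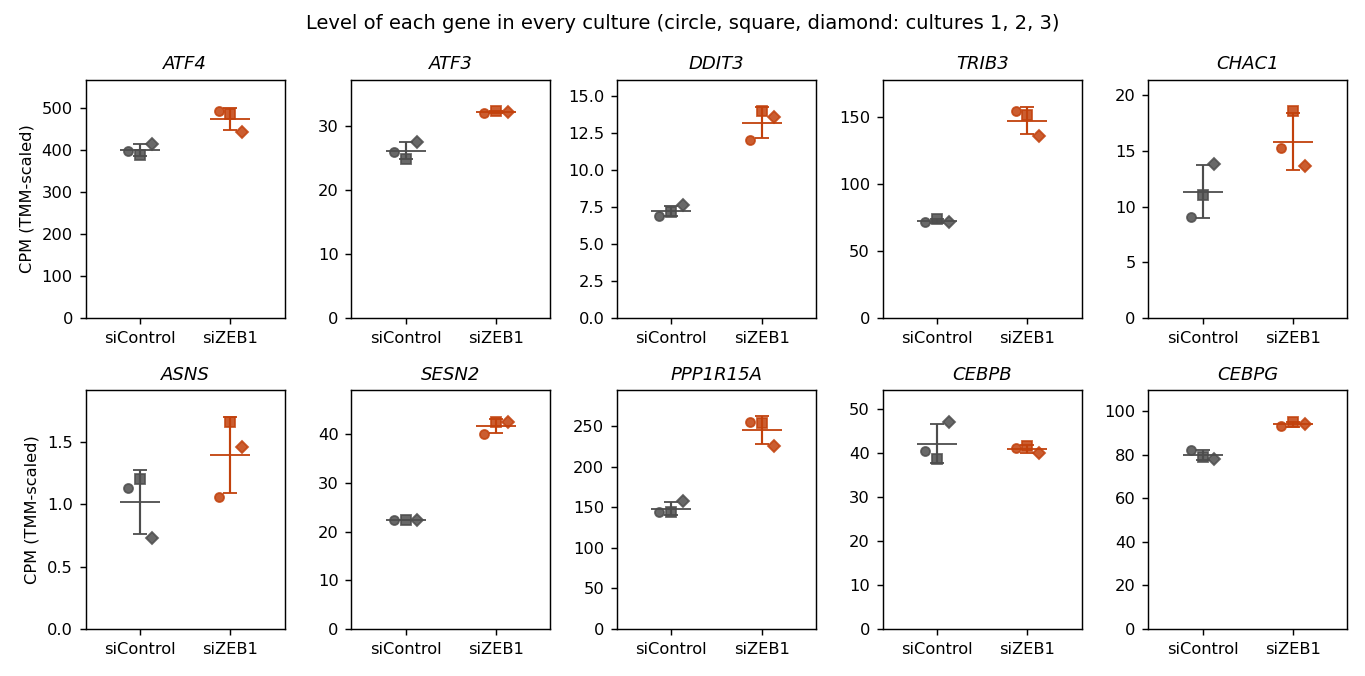
Level of each of the 10 genes in CPM (linear axis from 0) in the 3 siControl and 3 siZEB1 cultures; bars give the mean and SD, and circle, square and diamond mark cultures 1, 2 and 3. The groups are apart for 7 genes and overlap for CHAC1, ASNS and CEBPB.

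ATF4 itself (ENSG00000128272, chr22:39519695-39522685, plus strand, hg38) was tested first. Its level was 398, 387 and 415 CPM in the siControl cultures and 493, 485 and 443 CPM in the siZEB1 cultures. The groups did not overlap, but siZEB1 3 lay closer to siControl than its companions. The mean rose from 400.0 ± 14.3 to 473 ± 27.0 CPM (SD, n = 3), or by 18.4% (log2 fold change 0.24, SE 0.057, adjusted p = 0.00251, edgeR). The 95% confidence interval ran from 0.12 to 0.36, which does not reach that of TRIB3, DDIT3, SESN2 or PPP1R15A. Reads placed on the ATF4 pseudogenes ATF4P3 and ATF4P4 came to at most 0.367% and 0.0118% of the reads on ATF4 in a culture. In these bulk samples a change in RNA per cell and a change in the share of cells that express a gene cannot be told apart.

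Among the transcription factors of the set, DDIT3 had the largest change. DDIT3 (ENSG00000175197, chr12:57516588-57521737, minus strand), also called CHOP, is a C/EBP protein of the late stress response. It stood at 6.91, 7.14 and 7.63 CPM with siControl and at 12.0, 14.0 and 13.6 CPM with siZEB1. The lowest siZEB1 culture was well above the highest siControl culture. The mean rose from 7.23 ± 0.363 to 13.2 ± 1.04 CPM (SD, n = 3; log2 fold change 0.87, SE 0.11, adjusted p = 7.63e-06, edgeR). Exons of MARS and MBD6 on the opposite strand cover 27.2% and 4.44% of the exonic bases of DDIT3, and AC022506.1 covers 8.03% on the same strand. The strand setting of the counting is not given, so a part of this count could belong to those genes.

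ATF3 (ENSG00000162772, chr1:212565334-212620777, plus strand), an immediate early and stress-induced factor of the ATF family, was at 26.0, 24.8 and 27.5 CPM with siControl and at 31.9, 32.3 and 32.2 CPM with siZEB1. The siZEB1 cultures were nearly equal and all above siControl. The mean rose by 23.1%, from 26.1 ± 1.34 to 32.1 ± 0.211 CPM (SD, n = 3; log2 fold change 0.30, SE 0.077, adjusted p = 0.00475, edgeR).

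Of the C/EBP partners of ATF4 in the set, CEBPG passed the test and CEBPB did not, and the difference between the partners was not tested. CEBPG (ENSG00000153879, chr19:33373330-33382686, plus strand), a dimer partner of ATF4, was at 82.2, 79.1 and 78.2 CPM with siControl and at 92.9, 95.2 and 93.9 CPM with siZEB1. These groups were apart, and the mean rose by 17.8% (log2 fold change 0.24, SE 0.062, adjusted p = 0.00588, edgeR). CEBPB (ENSG00000172216, chr20:50190734-50192689, plus strand), another partner and itself a stress-induced regulator, was at 40.6, 38.7 and 47.2 CPM with siControl and at 41.2, 41.7 and 40.1 CPM with siZEB1. The siZEB1 values lay inside the siControl range, with a log2 fold change of -0.04 (SE 0.081, 95% confidence interval -0.21 to 0.13, adjusted p = 0.731, edgeR). The sign of the CEBPB value rested on siControl 3, without which it was 0.045. CEBPB-AS1 shares 11.8% of the exonic bases of CEBPB on the opposite strand and had 10 to 36 reads in a culture.

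TRIB3 (ENSG00000101255, chr20:362835-397559, plus strand), a pseudokinase that binds AKT and ATF4 and restrains both, had the largest change of the 10. Its level was 71.6, 74.0 and 71.7 CPM in the siControl cultures and 154, 151 and 135 CPM in the siZEB1 cultures. The siControl cultures were tightly grouped, and each siZEB1 culture was far above them. The mean went from 72.5 ± 1.38 to 147 ± 10.1 CPM (SD, n = 3), a 2.03-fold rise or 1.02 on the log2 scale (SE 0.067, adjusted p = 3.84e-09, edgeR), above the change of 97.5% of all genes tested.

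SESN2 (ENSG00000130766, chr1:28259527-28282491, plus strand), a leucine sensor that restrains mTORC1, was at 22.4, 22.4 and 22.5 CPM with siControl and at 40.0, 42.5 and 42.6 CPM with siZEB1. The siControl cultures were almost identical. The mean rose by 86.1%, from 22.4 ± 0.0482 to 41.7 ± 1.47 CPM (SD, n = 3; log2 fold change 0.90, SE 0.075, adjusted p = 6.98e-08, edgeR).

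PPP1R15A (ENSG00000087074, chr19:48872392-48876057, plus strand), known as GADD34, recruits protein phosphatase 1 to eIF2 and so ends the response. It was at 144, 144 and 158 CPM with siControl and at 256, 254 and 226 CPM with siZEB1. No culture of one group reached the other. The mean rose by 65.1%, from 149 ± 7.82 to 245 ± 17.1 CPM (SD, n = 3; log2 fold change 0.72, SE 0.066, adjusted p = 1.8e-07, edgeR).

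The 2 metabolic enzymes of the set were less clear. CHAC1 (ENSG00000128965, chr15:40952962-40956519, plus strand), which degrades glutathione, was at 9.08, 11.1 and 13.9 CPM with siControl and at 15.3, 18.6 and 13.6 CPM with siZEB1. The groups overlapped, because siControl 3 was above siZEB1 3. The mean went from 11.3 ± 2.40 to 15.8 ± 2.51 CPM (SD, n = 3), and the log2 fold change of 0.49 (SE 0.14, adjusted p = 0.0105, edgeR) passed the test. The call was lost without siControl 1 (0.35, adjusted p = 0.0532) and without siZEB1 2 (0.35, adjusted p = 0.0751, edgeR), over a range of 9.89e-05 to 0.0751 for all alternatives.

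ASNS (ENSG00000070669, chr7:97852118-97872542, minus strand), which makes asparagine, was counted with only 24, 27 and 14 reads with siControl and with 20, 32 and 28 reads with siZEB1. At 1.02 ± 0.257 and 1.40 ± 0.308 CPM (SD, n = 3) the groups overlapped. The log2 fold change was 0.44 (SE 0.30, adjusted p = 0.257, edgeR), and its 95% confidence interval from -0.19 to 1.07 holds both no change and a change as large as that of TRIB3. AC079781.5, a transcript on the same strand, shares 44.6% of the exonic bases of ASNS and had 12 to 35 reads in a culture. How reads that fall on 2 genes were counted is not given, and its part in the low count of ASNS was not tested. With both genes summed, the log2 fold change was 0.49 (SE 0.24, adjusted p = 0.116, edgeR).

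**Figure D2:**
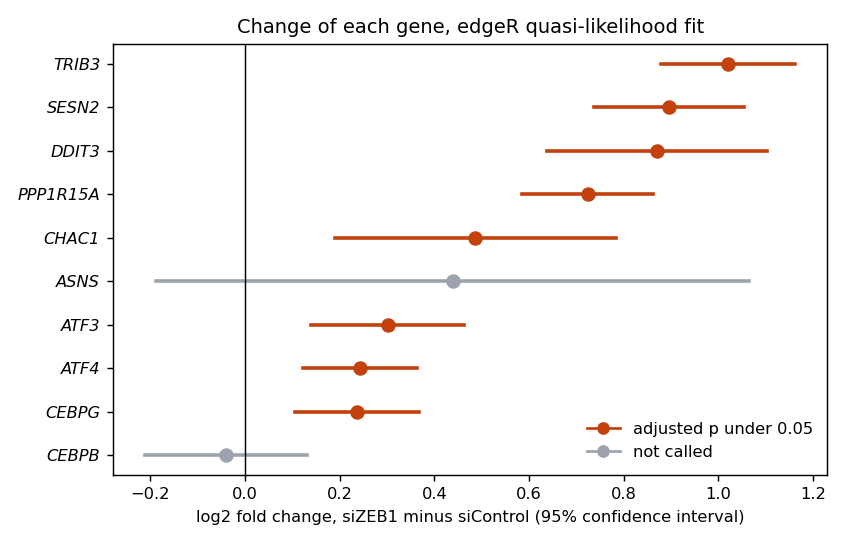
Log2 fold change of siZEB1 over siControl for each of the 10 genes, with its 95% confidence interval from edgeR's quasi-likelihood fit; orange marks an adjusted p under 0.05. TRIB3, SESN2, DDIT3 and PPP1R15A lie between 0.72 and 1.02, whereas ATF3, ATF4 and CEBPG lie between 0.24 and 0.30.

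The cultures did not stand in a fixed order over the set. Within siControl, culture 3 was the highest for 7 of the 10 genes. Within siZEB1, culture 2 was the highest for 6 genes and the lowest for none, and cultures 1 and 3 were each the lowest for 5.

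Per kb of exon, the siControl level was highest for ATF4 (159 ± 5.69 CPM per kb) and lowest for ASNS (0.229 ± 0.0578 CPM per kb; SD, n = 3). The length of ASNS includes the 44.6% of its exonic bases shared with AC079781.5. How reads on shared bases were counted is not given, so the level of ASNS per kb is uncertain. PPP1R15A followed ATF4 at 48.0 ± 2.53 CPM per kb. CEBPB (21.6 ± 2.28) and TRIB3 (21.1 ± 0.400) came next with overlapping siControl cultures, and CEBPG was below both at 18.1 ± 0.479 CPM per kb. SESN2 (6.49 ± 0.0140) overlapped with ATF3 (6.46 ± 0.331), and DDIT3 (5.53 ± 0.278) overlapped with CHAC1 (5.51 ± 1.16 CPM per kb). With siZEB1, TRIB3 stood at 42.8 ± 2.94 CPM per kb, with every culture above CEBPB at 21.0 ± 0.425, and CEBPG reached 21.3 ± 0.257 CPM per kb.

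**Figure D3:**
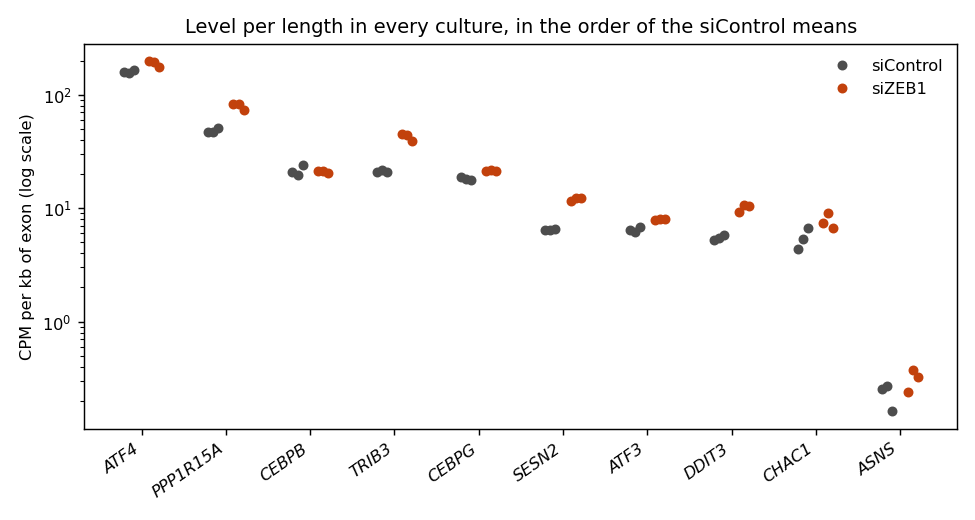
Level per length (CPM per kb of exon, log scale) of the 10 genes in the 3 siControl and 3 siZEB1 cultures, ordered by the siControl mean. ATF4 is the highest and ASNS the lowest in both groups, and TRIB3 leaves the level of CEBPB in the siZEB1 cultures. The length of ASNS includes exonic bases shared with AC079781.5.

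Upstream ATG codons in the leader of the message, the feature through which ATF4 translation is controlled, were counted on 1 GENCODE 29 transcript per gene. ATF4 had 3 in a leader of 280 bases, the first opening a reading frame of 1 codon and another a frame of 59 codons that runs past the coding start. DDIT3 also had 3, the first opening a frame of 34 codons and another a 73-codon frame running past the coding start. ATF3 had 5. TRIB3 and CEBPG had 3 each, PPP1R15A 2 and SESN2 1, while CHAC1, ASNS and CEBPB had none before the annotated coding start. A reading frame that begins after that start was not counted. Thus 7 of the 10 genes had at least 1, against 49.8% of the 12049 tested genes with a leader, and 3 of the 10 had a frame overlapping the coding start, against 16.2%. The leader of CHAC1 was only 20 bases long. Under an alternative choice of transcript, with the longest leader, ASNS had at least 1 as well. A link between upstream ATGs and the change in RNA was not tested.

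Other genes of the pathway were compared by role, in lists that hold 149 further tested genes. Of these 55 rose, 29 fell and 65 did not pass the test, and their median log2 fold change was 0.065. Over all genes tested, 19.0% rose and 21.2% fell. The lists were chosen with earlier results of these data known, and no list was tested against these shares.

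Upstream of ATF4, the eIF2 kinases changed little. EIF2AK3 (PERK, which senses the endoplasmic reticulum) was the only 1 of 4 called, from 19.2 ± 2.13 to 23.7 ± 2.05 CPM (SD, n = 3), a log2 fold change of 0.30 (adjusted p = 0.0234, edgeR). Its groups overlapped, and no kinase was called when siControl 1, siControl 3, siZEB1 1 or siZEB1 3 was left out. The log2 fold changes of EIF2AK1 (HRI), EIF2AK2 (PKR) and EIF2AK4 (GCN2) were 0.09, 0.02 and 0.10, with adjusted p between 0.166 and 0.855.

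Among the relays that feed the kinases, 2 of 9 rose and 2 fell, and the median was -0.12. These counts are near the shares over all genes tested. DNAJC3, a chaperone that inhibits PERK and PKR, rose from 51.8 ± 5.42 to 70.3 ± 4.51 CPM (SD, n = 3; log2 fold change 0.44). QRICH1, kept in this list although it is known as a transcriptional regulator of the response, rose by 0.19 on the log2 scale. DELE1, which relays mitochondrial stress to HRI, fell from 55.3 ± 5.06 to 40.8 ± 1.77 CPM (SD, n = 3; -0.44), and GCN1, the partner of GCN2, fell from 282 ± 9.40 to 238 ± 5.02 CPM (SD, n = 3; -0.25). A single relay was called higher when siControl 1, siControl 2, siZEB1 1 or siZEB1 2 was left out.

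The list of the eIF2 phosphatase, eIF2 and its exchange factor eIF2B had 14 genes, of which 4 rose and 5 fell. It also holds EIF2A (log2 fold change 0.20), which encodes a separate initiation factor and was one of those that rose, so that no subunit of eIF2 or eIF2B was called higher. The other genes that rose belong to the phosphatase. Beside PPP1R15A they were the catalytic subunits PPP1CB and PPP1CC, with log2 fold changes of 0.55 and 0.49. The remaining catalytic subunit, PPP1CA, fell from 365 ± 21.0 to 319 ± 14.5 CPM (SD, n = 3; log2 fold change -0.20, adjusted p = 0.0138, edgeR), and PPP1R15B, the constitutive counterpart of PPP1R15A, had a log2 fold change of -0.11 (adjusted p = 0.25, edgeR). EIF2S1, the subunit that the kinases phosphorylate, fell from 303 ± 12.2 to 227 ± 2.56 CPM (SD, n = 3), a log2 fold change of -0.41 (adjusted p = 1.41e-05, edgeR). EIF2S3, another eIF2 subunit, fell by 0.26 on the log2 scale, and the eIF2B subunits EIF2B4 and EIF2B3 fell by 0.35 and 0.21. Without siZEB1 3, 3 genes of this list were called lower instead of 5.

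Of the 15 ATF4-related and C/EBP transcription factors tested, 8 rose and 2 fell, 4 of the 8 being ATF4, ATF3, DDIT3 and CEBPG. ATF7, JDP2 and CEBPD rose with log2 fold changes of 0.71, 0.56 and 0.58. CEBPA fell from 5.86 ± 0.505 to 3.50 ± 0.469 CPM (SD, n = 3), a log2 fold change of -0.74 (adjusted p = 0.000954, edgeR).

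The enzymes of amino acid synthesis did not move as a block. PSAT1, the transaminase of serine synthesis, was at 224, 211 and 207 CPM with siControl and at 75.0, 74.9 and 76.1 CPM with siZEB1. It fell by 1.51 on the log2 scale (SE 0.061, adjusted p = 8.11e-12, edgeR), the largest change in either direction among the called genes of these lists other than FGF21. PSPH, which acts next in the same pathway, rose from 56.5 ± 2.02 to 72.5 ± 4.14 CPM (SD, n = 3; log2 fold change 0.36). MTHFD2, of mitochondrial one-carbon metabolism, rose from 150 ± 8.73 to 203 ± 0.488 CPM (SD, n = 3; 0.44). In all, 2 of 9 serine, glycine and one-carbon enzymes rose, 1 fell and 6 were not called. Of 9 other enzymes of amino acid synthesis, ASNS included, 4 rose and 1 fell. PCK2, CTH and GOT1 rose with log2 fold changes of 0.48, 0.42 and 0.39, and PYCR1, the last enzyme of proline synthesis, fell by 0.41 on the log2 scale.

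Of the 11 amino acid transporters tested, 4 rose and 1 fell. SLC7A11, the cystine importer, rose from 14.8 ± 0.463 to 25.0 ± 2.75 CPM (SD, n = 3; log2 fold change 0.75), and its heavy chain SLC3A2 from 933 ± 53.3 to 1327 ± 76.2 CPM (SD, n = 3; 0.51). SLC6A9, a glycine transporter, rose with a log2 fold change of 0.65, and SLC43A1 fell by 0.53 on the log2 scale. Without siControl 3, 2 transporters were called lower.

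The cytosolic aminoacyl-tRNA synthetases, a group that ATF4 is known to induce, had a median of -0.096. Of 13, 4 fell and 2 rose. GARS1 fell from 312 ± 7.39 to 216 ± 8.83 CPM (SD, n = 3; log2 fold change -0.53), AARS1 from 199 ± 5.45 to 154 ± 6.14 CPM (SD, n = 3; -0.37), and NARS1 and LARS1 by 0.24 and 0.21 on the log2 scale. The number that rose was 1 without siControl 1 or siControl 2 and 0 without siZEB1 1 or siZEB1 2.

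Regulators of mTORC1 and translation were split. Of 9 tested, 5 rose, TRIB3 and SESN2 among them, and 2 fell. The median log2 fold change was 0.63 with these 2 genes and 0.17 over the other 7. DDIT4 (REDD1), an inhibitor of mTORC1, rose from 10.9 ± 0.171 to 19.2 ± 1.51 CPM (SD, n = 3; log2 fold change 0.82), and TRIB2 and KLHL24 rose with log2 fold changes of 0.64 and 0.63. EIF4EBP1, the translation repressor 4E-BP1 and a known ATF4 target, fell from 87.8 ± 9.84 to 53.8 ± 4.12 CPM (SD, n = 3), a log2 fold change of -0.71 (adjusted p = 4.05e-06, edgeR).

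Of 10 glutathione and redox genes, 5 rose (CHAC1, CTH and SLC7A11 among them) and 2 fell. Known NRF2 targets went both ways. GCLC and GCLM, the subunits of the enzyme that starts glutathione synthesis, both rose by 0.34 on the log2 scale (adjusted p = 0.000536 for GCLC and 0.000421 for GCLM, edgeR), and NQO1 and SRXN1 were not called. The 2 genes that fell were HMOX1 from 55.7 ± 3.13 to 33.0 ± 1.06 CPM (SD, n = 3; log2 fold change -0.76) and TXNRD1 from 593 ± 49.8 to 369 ± 24.5 CPM (SD, n = 3; -0.69).

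Of 7 secreted stress factors, 5 rose and 1 fell, with a median of 0.51. INHBE, an activin subunit made under stress, was counted with 32, 44 and 45 reads with siControl and 83, 67 and 96 reads with siZEB1 (log2 fold change 1.16, SE 0.21, adjusted p = 0.000254, edgeR). ADM2 rose from 4.27 ± 0.663 to 8.75 ± 0.974 CPM (SD, n = 3; 1.04). VEGFA rose from 56.5 ± 0.999 to 80.2 ± 3.48 CPM (SD, n = 3; 0.51), and ANGPTL4 fell from 23.3 ± 3.60 to 13.8 ± 1.01 CPM (SD, n = 3; -0.75).

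Of 9 death and survival genes, 4 rose and none fell. They hold both the death receptor TNFRSF10B (log2 fold change 0.45) and the BH3-only gene BBC3 (0.55), and the survival genes BCL2L1 (0.51) and MCL1 (0.16). Without siControl 2 the number that rose was 2, and without siZEB1 3 the number that fell was 1.

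Of 20 genes listed under IRE1 and ATF6, the sister arms of the unfolded protein response, 13 were higher and 3 lower, with a median of 0.29. How far these genes also answer to ATF4 was not tested. DNAJB9 and HERPUD1 rose with log2 fold changes of 0.85 and 0.78, and EDEM1 and SEC24D fell by 1.02 and 0.67 on the log2 scale. Some of the 10 genes also respond to p53 or to growth signals. Of 12 p53 targets 2 rose and 2 fell, near the shares over all genes tested, with a median of 0.028. BAX and BTG2 rose with log2 fold changes of 0.28 and 0.31, and GADD45A and MDM2 fell by 0.63 and 0.38 on the log2 scale. Without siControl 2 or siZEB1 1, 1 of the 12 rose. Of 13 immediate early genes 6 rose, ATF3 and PPP1R15A among them, and 3 fell, with FOSB (log2 fold change 0.74) and IER2 (0.50) higher and MYC (-0.64) and JUN (-0.36) lower.

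**Figure D4:**
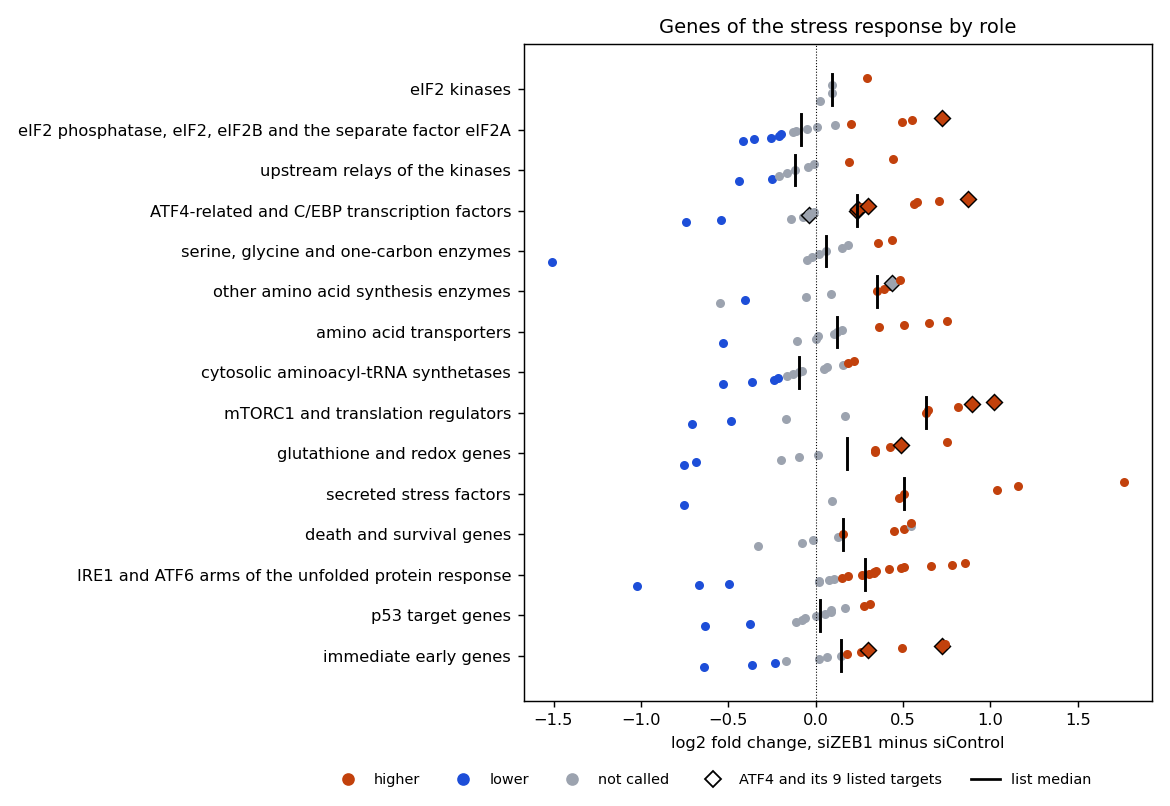
Log2 fold change of siZEB1 over siControl for the tested genes of 15 lists by role; orange, blue and grey mark genes called higher, lower and not called, diamonds the 10 genes, and black bars the list medians. The medians run from -0.12 for the relays to 0.63 for the mTORC1 and translation regulators (0.17 without TRIB3 and SESN2; the highest median of a list that holds none of the 10 genes is 0.51, for the secreted factors), and PSAT1 is the point farthest to the left, at -1.51.

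**Figure D5:**
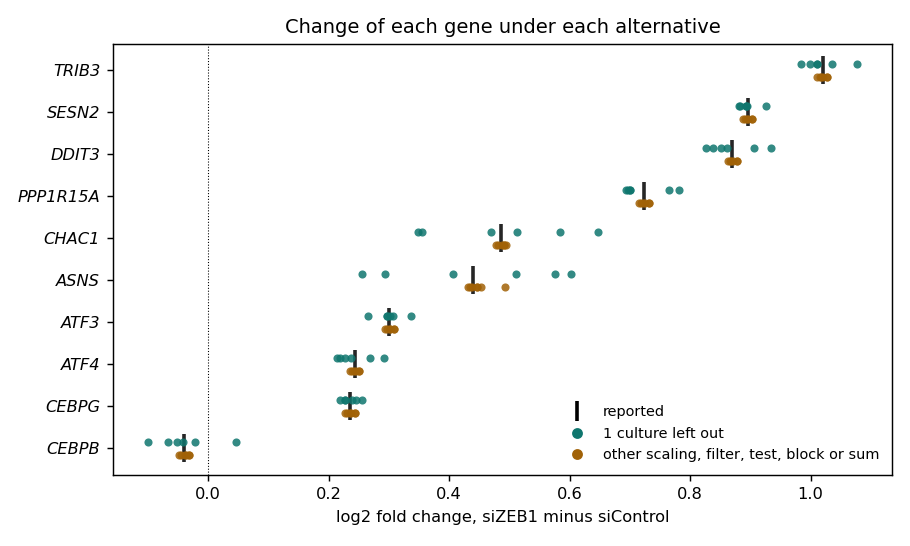
Log2 fold change of each of the 10 genes as reported (black bar) and under each alternative (green, 1 culture left out; brown, another scaling, filter, test, block or sum). CEBPB is the only gene of the 10 that crosses 0, and TRIB3 stays between 0.98 and 1.08.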

How the data were processed

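Per the labels, RNA of SW480 cells was sequenced 48 h after transfection, 3 cultures per group. The deposited values are raw counts of reads per Ensembl gene, 1 table per culture, which the authors left without normalization. The submitters' processing notes name Trimmomatic, HISAT2, SAMtools, featureCounts and hg38 without versions, and the annotation, the strand setting and the treatment of reads on overlapping genes are not given in the sources used here.

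Counts were filtered by filterByExpr and fitted with edgeR 4.0.16 in R 4.3.3 (TMM scaling, quasi-likelihood test, two-sided, no covariates, Benjamini-Hochberg adjustment over 14996 genes). The code was tested on simulated data. Fewer of the changed genes were recovered than the bar first set for that test asked for, all of the missed ones lay at low levels, where ASNS also lies, and the bar was then replaced by one set by expression level. Within a group, the chi-square between replicate counts was 2.18 to 8.58 times its degrees of freedom, so none is a copy. Confidence intervals use the degrees of freedom of the test. Depth limits mainly genes under 5 CPM. A simulated log2 fold change of 1 was recovered for 18.2% of the changed genes under 1 CPM. It was recovered for 68.3% at 1 to 5 CPM and for 100% over 5 CPM.

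Exon lengths, overlaps and leaders came from GENCODE 29 (GRCh38), with 1 transcript per gene by APPRIS class, support level and then the shortest leader. The longest leader was taken first and replaced after it had given an 882-base variant for ATF4. Under it 8 of the 10 genes had an upstream ATG, against 52.8% of genes. Promoter windows are RefSeq's.

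The 10 genes and the lists were chosen with earlier results of these data known. Beside them, the text names the eIF2 kinases, PPP1R15B and, per list, up to 4 called genes of at least 1 CPM whose groups do not overlap, by size of change. FGF21, PPP1CA, EIF2A, EIF2S3, EIF2B3, GCLC, GCLM, NQO1, SRXN1, TRIB1 and MARS1 were named after their values were seen. Alternatives were DESeq2 1.42.0, other scaling and filters, a replicate block, each culture left out, and a 1.5-fold rule. The sum of ASNS with AC079781.5 and the leader rule were added after seeing the data.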

Additional observations from a re-analysis of the deposited data

How the results depend on the processing

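The 8 calls among the 10 genes were made under each other scaling, filter and test, and 7 to 8 were made with 1 culture left out, CHAC1 being lost (log2 fold change 0.35 to 0.65 over the cultures left out). CEBPB ran from -0.099 to 0.045 and reversed at 0.045 without siControl 3, and the cause was not tested. A fold change above 1.5 with an unadjusted p under 0.05 left 4 of the 10 genes higher, and 1081 genes higher and 1402 lower among all tested, because it asks for a larger change. Deviations from the group mean had correlations of -0.078, -0.12 and -0.28 between same-numbered cultures and of -0.12 to 0.21 between differently numbered ones. Taken from means of 3 cultures, these values constrain one another and cannot decide whether the cultures were paired. With the replicate number as a block, 8 of the 10 genes were again higher, while 0 eIF2 kinases, 0 tRNA synthetases and 1 relay were called higher and 3 genes of the eIF2 list lower. With 1 culture left out, 0 to 1 kinases, 1 to 2 relays, 0 to 3 synthetases, 1 to 2 p53 targets and 2 to 4 death and survival genes were called higher, and 3 to 5 genes of the eIF2 list, 1 to 2 transporters and 0 to 1 death and survival genes lower. The median log2 fold change of all genes tested was 0.0021 with median-of-ratios size factors and -0.014 with total library size only. The value farthest from 0 was 0.025, without a filter on low counts.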

Other observations

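FGF21, a secreted factor induced through ATF4, was counted with 7, 3 and 3 reads with siControl and with 16, 14 and 11 reads with siZEB1. Its log2 fold change of 1.76 (SE 0.47, adjusted p = 0.0063, edgeR's quasi-likelihood test) rests on a level under 1 CPM in every culture. NUPR1, a stress-induced cofactor, had 1 to 3 reads in a culture and was not tested.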
